A study of Mus musculus with 2 samples.

Results

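FGF receptors and brain FGFs are followed here as 9 genes chosen by name, out of 32532 gene symbols counted in mouse dorsal striatum. They are the receptor genes Fgfr1, Fgfr2 and Fgfr3, the secreted ligand genes Fgf1, Fgf2 and Fgf9, and the FGF homologous factor genes Fgf12, Fgf13 and Fgf14. All 9 were listed with reads in both libraries, and 8 had at least 50 counts over the libraries together; Fgf2 did not.

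The mice had taken cocaine by intravenous self-administration with long access. The libraries come from 2 labelled groups, escalating and nonescalating in cocaine intake, with 1 library each. Both groups carried the Drd1-EGFP/Rpl10a transgene (line CP73), a bacterial artificial chromosome in which Drd1 sequences drive an EGFP-tagged ribosomal protein, in mice of mixed origin (FVB/N and Swiss Webster) bred to C57BL/6 over 9 or more generations. Both libraries are input, the total RNA of the whole dissected tissue, so neurons, glia and vessels all contribute. Animal age, sex, number per library, session schedule and time of day were not given in the sources used here, and no library from drug-naive animals was analysed here.

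FGF signalling runs through secreted ligands that bind receptor tyrosine kinases together with heparan sulfate chains at the cell surface. The receptors pass the signal through the adaptor FRS2 to the RAS and MAP kinase cascade, and Sprouty proteins and dual-specificity phosphatases feed back on it. In the brain, Fgfr3 is known as an astrocyte gene, Fgfr2 as a gene of the oligodendrocyte lineage and astrocytes, and Fgfr1 as a gene of neurons as well as glia. FGF homologous factors share the FGF fold but lack a secretion signal; they stay inside neurons and bind the tails of voltage-gated sodium channels.

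The sequences upstream of annotated starts are shown for the receptor genes with the largest differences, Fgfr2 and Fgfr3, and for the members with the highest ratios, Fgf9 and Fgf12. They come from the RefSeq promoter table for GRCm38.p6. Windows of 7 of the 9 members were used from it. No window of Fgfr1 or Fgf1 was used, so the window counts below do not cover these genes. Each sequence shown runs 5′ to 3′ on the gene's strand. It is the outermost start in the table, without bases in exons of coding transcripts. The one for Fgf9 lies inside the RefSeq span of the gene. Capitals mark the GC box GGGCGG or its reverse complement. The windows are chr7:130266809-130267058 (minus strand) for Fgfr2, chr5:33721474-33721673 (plus) for Fgfr3, chr14:58072436-58072685 (plus) for Fgf9 and chr16:28753244-28753493 (minus) for Fgf12.
Fgfr2: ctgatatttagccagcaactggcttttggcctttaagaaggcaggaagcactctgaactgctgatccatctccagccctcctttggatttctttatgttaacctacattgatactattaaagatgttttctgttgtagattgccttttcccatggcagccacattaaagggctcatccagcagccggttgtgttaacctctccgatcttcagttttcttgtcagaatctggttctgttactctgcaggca
Fgfr3: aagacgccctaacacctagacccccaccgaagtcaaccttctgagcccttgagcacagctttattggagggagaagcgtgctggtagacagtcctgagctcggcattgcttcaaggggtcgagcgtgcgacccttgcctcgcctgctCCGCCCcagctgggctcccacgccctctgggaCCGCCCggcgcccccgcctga
Fgf9: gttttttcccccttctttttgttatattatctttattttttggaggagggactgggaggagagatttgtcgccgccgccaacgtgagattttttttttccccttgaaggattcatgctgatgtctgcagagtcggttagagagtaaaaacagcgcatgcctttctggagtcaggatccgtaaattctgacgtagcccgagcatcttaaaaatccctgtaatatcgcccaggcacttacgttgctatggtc
Fgf12: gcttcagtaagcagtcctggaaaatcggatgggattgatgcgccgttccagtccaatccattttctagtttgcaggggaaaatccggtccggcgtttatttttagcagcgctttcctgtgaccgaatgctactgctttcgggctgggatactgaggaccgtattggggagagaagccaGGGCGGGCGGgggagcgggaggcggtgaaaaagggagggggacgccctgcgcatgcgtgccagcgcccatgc

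The upstream sequences differed in base composition: G and C made up 44.0% of the Fgfr2 stretch and 44.8% of the Fgf9 stretch, against 65.0% for Fgfr3 and 58.4% for Fgf12. Over all 32851 windows of 250 bases in the table the median was 52.4%. The Fgfr3 stretch was cut to 200 bases to leave out exon bases, and its full window had 66.8% and 3 GC boxes. The Fgfr3 and Fgf12 stretches held 2 GC boxes each, which overlap in Fgf12, and the Fgfr2 and Fgf9 stretches held none. Among the 14 windows of the 7 members used, of which several belong to 1 gene, 9 held a GC box on either strand. Of all windows in the table, 32.7% did. On either strand, none of these 14 windows held the TATA box TATAAA, found in 12.4% of all windows. None held the E-box CACGTG, found in 6.02%, or the cAMP response element TGACGTCA, found in 1.55%. Such matches describe letters only. Of the stretches printed, those of Fgfr2 and Fgf9 lack the GC box and those of Fgfr3 and Fgf12 have it. A further Fgf12 window, chr16:28446076-28446325, held none.

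Reads assigned to genes numbered 9548358 (escalating) and 9376097 (nonescalating). The libraries stood apart in other ways: 28.6% of escalating and 18.1% of nonescalating reads fell outside annotated genes, and 8.06% and 18.9% fell in more than 1 gene. The ribosomal RNA symbol Rn45s took 5.15% and 2.97% of assigned reads; the part of these differences in the values that follow was not tested. The symbol AK140265 took 9.66% and 24.1% of assigned reads, so library sizes were scaled with TMM, and levels are CPM, counts scaled to a common library size. With 1 library per group, no difference here has a replicate check and no test between the groups can be made. Intervals are exact 95% counting intervals, which cover counting error only. Calls required a ratio of 1.5-fold or more between the libraries and an interval that did not contain 1. The striatal part of the label dorsal striatum was met by the markers, as all 20 genes of a striatal projection neuron list were well counted. Their minima were 1013 (escalating) and 808 (nonescalating). Whether the dissection was dorsal was not tested.

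All 3 receptor genes and Fgf1 were lower in the escalating library, while Fgf9 and the 3 homologous factor genes did not reach the call. Of the 8 members with enough counts, 4 were called lower, beside 17.1% of all 12213 measured genes, and 0 were called higher, beside 9.36%. With scaling by total assigned reads in place of TMM, the same 4 were called lower (9.40% of all genes), and Fgf9 and Fgf12 were called higher (31.5% of all genes). Over all genes the median log2 ratio moved from 0.02 (TMM) to 0.38 (total reads), and the share of calls in the higher direction from 35.4% to 77.0%. The median over the 8 members was -0.76 and -0.40.

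**Figure D1:**
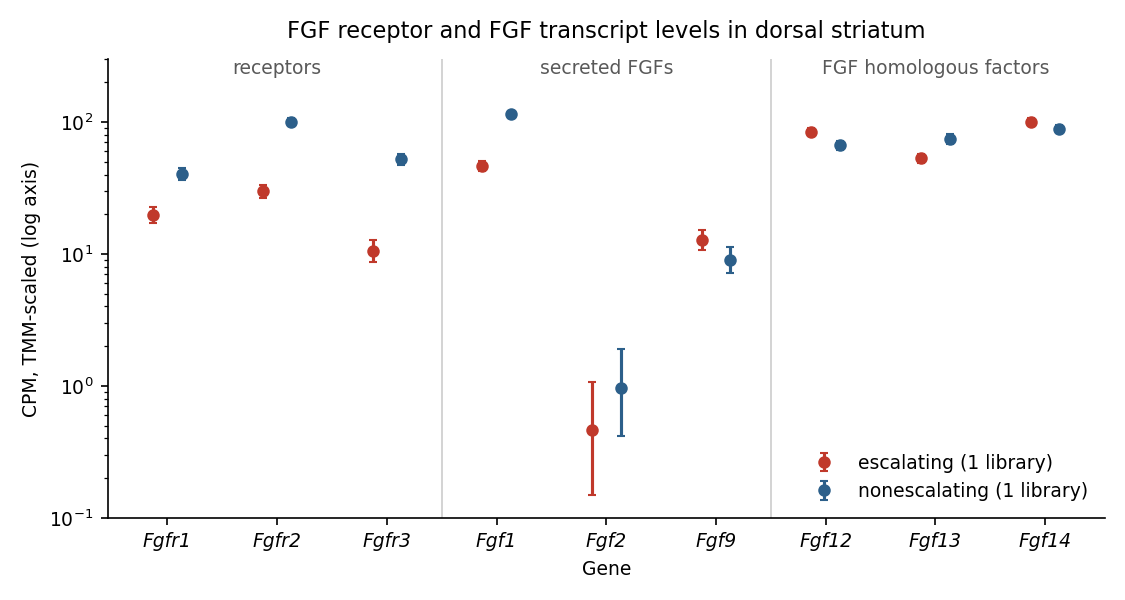
Level of each member in CPM (TMM-scaled, log axis) in the escalating (red) and nonescalating (blue) library; points are single libraries and bars are exact 95% counting intervals. The receptors and Fgf1 sit well below in the escalating library, and the homologous factors lie close together in both, between 53.0 and 100.4 CPM.

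Fgfr3, the receptor best known from astrocytes (chromosome 5, 33721724 to 33737068, RefSeq GRCm38.p6), was counted 114 times in the escalating library against 431 times in the nonescalating, or 10.5 and 52.1 CPM. The difference was 4.94-fold (4.01 to 6.13) in the lower direction, and 1.92% of measured genes had a ratio as low or lower. This was the largest difference among the members. All 14 astrocyte markers were also lower in the escalating library, as set out below, and in tissue RNA fewer cells of a type and less RNA per cell cannot be told apart. Fgfr3 shares 998 exon bases with G630022F23Rik on the opposite strand, which the count files do not list.

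Fgfr2 (chromosome 7, 130162451 to 130266808), with 324 and 825 counts, stood at 29.9 and 99.7 CPM and was 3.33-fold lower (2.93 to 3.8). Fgfr1 (chromosome 8, 25518759 to 25575718), with 214 and 335 counts, stood at 19.8 and 40.5 CPM and was 2.05-fold lower (1.72 to 2.44). Scaled by total reads, Fgfr3 was 3.85-fold, Fgfr2 2.59-fold and Fgfr1 1.59-fold lower. The intervals of the 3 ratios did not overlap.

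The makeup of the receptor reads can be given within each library, free of any scaling. Of the 652 reads on the 3 receptor genes in the escalating library, Fgfr3 took 17.5% (14.6 to 20.6) and Fgfr1 32.8% (29.2 to 36.6). Of the 1591 in the nonescalating library, Fgfr3 took 27.1% (24.9 to 29.3) and Fgfr1 21.1% (19.1 to 23.1). Fgfr2 held about the same share in both, 49.7% (45.8 to 53.6) and 51.9% (49.4 to 54.3), and these intervals overlap. There were 0.533 reads on Fgfr3 per read on Fgfr1 in the escalating library and 1.29 in the nonescalating, a 2.41-fold difference (1.83 to 3.19). The shares and the ratios between genes, here and for the other families, were picked for description after the counts were seen.

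The fourth signalling receptor gene, Fgfr4, had 1 count in each library, so a difference was not detectable at this depth. Fgfrl1, which encodes a receptor-like protein without the kinase part, was 3.25-fold lower (2.24 to 4.80) on 41 and 102 counts. It was called lower with total-read scaling as well.

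**Figure D2:**
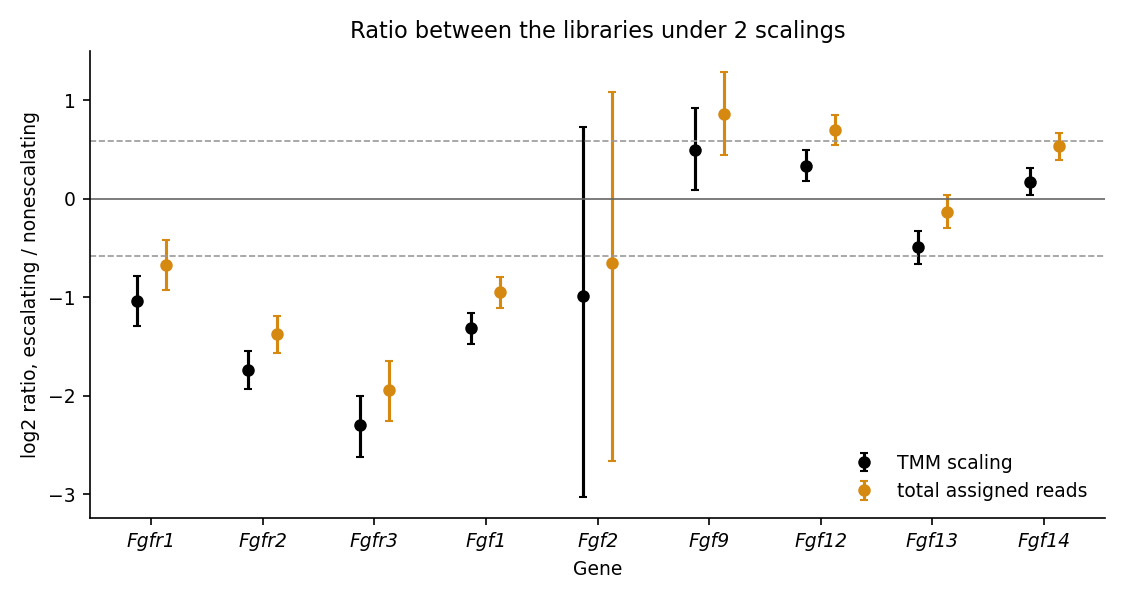
The log2 ratio of escalating over nonescalating for each member, with TMM scaling (black) and scaling to total assigned reads (orange); bars are 95% counting intervals and dashed lines mark 1.5-fold. The receptors and Fgf1 lie below the lower line under both scalings, Fgf9 and Fgf12 cross the upper line only with total reads, and the interval of Fgf2 spans 0.

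The secreted ligands did not share a direction. Fgf1, the ligand that binds all the receptor types (chromosome 18, 38838672 to 38929470), had 500 and 949 counts, or 46.2 and 114.7 CPM. It was 2.48-fold lower in the escalating library (2.23 to 2.77). Fgf9, a ligand made by neurons (chromosome 14, 58070671 to 58112854), had 139 and 75 counts, or 12.8 and 9.06 CPM. Its ratio was 1.42-fold (1.06 to 1.90), under the 1.5-fold threshold, and 1.82-fold with total-read scaling, where it was called higher.

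Fgf1 was thus the one abundant ligand gene among the members that stood low with the receptors. Set against each other, Fgf9 gave 0.278 reads per read on Fgf1 in the escalating library and 0.079 in the nonescalating, a 3.51-fold difference (2.58 to 4.82) that no scaling can move. Fgf2, the basic FGF known from astrocytes (chromosome 3, 37348477 to 37410106), had 5 and 8 counts. Its ratio was 0.478 (0.123 to 1.66), and a difference was not detectable at this depth. Fgf2 also shares 640 exon bases with Nudt6 on the opposite strand, which had 41 and 56 counts; whether strand was used in counting is not stated in the sources used here.

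None of the 3 FGF homologous factor genes was called, with log2 ratios between -0.49 and 0.34. Fgf14 (chromosome 14, 123974441 to 124677686), whose product binds sodium channels at the axon initial segment, had 1086 and 737 counts, or 100.4 and 89.1 CPM. Its ratio was 1.13-fold (1.03 to 1.24), and its direction depended on the scaling: the log2 ratio was 0.17 with TMM, 0.53 with total reads and -0.14 when the libraries were centred on general neuron markers. It shares 220 exon bases with Gm28932 on the opposite strand.

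Fgf12 (chromosome 16, 28157783 to 28753243) had 909 and 550 counts, or 84.0 and 66.5 CPM, and a ratio of 1.26-fold (1.14 to 1.41). With total-read scaling it was 1.62-fold and was called higher. Fgf13 (chromosome X, 59062139 to 59585572), known also to bind microtubules, had 573 and 616 counts, or 53.0 and 74.5 CPM. Its log2 ratio was -0.49 (-0.66 to -0.33) with TMM and -0.13 with total reads, so it was not called. It was called lower when the libraries were centred on general neuron markers, at -0.81.

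Within this family Fgf13 and Fgf12 differed between the libraries in their share of reads, in opposite directions. With Fgf11, the remaining homologous factor gene, the family took 3740 escalating and 2667 nonescalating reads. Fgf13 held 15.3% (14.2 to 16.5) of them in the former and 23.1% (21.5 to 24.7) in the latter. Fgf12 held 24.3% (22.9 to 25.7) and 20.6% (19.1 to 22.2), while the intervals of the shares overlapped for Fgf14 (29.0% and 27.6%) and Fgf11 (31.3% and 28.6%). Fgf11 itself had 1172 and 764 counts and a ratio of 1.17-fold (1.07 to 1.29); with total-read scaling it was called higher. The reads per read on Fgf13 were 1.59 and 0.893 for Fgf12, a 1.78-fold difference (1.52 to 2.08), and 1.90 and 1.20 for Fgf14, a 1.58-fold difference (1.36 to 1.84).

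Between the families the contrast was wider. Fgf12, Fgf13 and Fgf14 together gave 3.94 reads per receptor read in the escalating library and 1.20 in the nonescalating, a 3.29-fold difference (2.95 to 3.68) that does not depend on scaling.

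**Figure D3:**
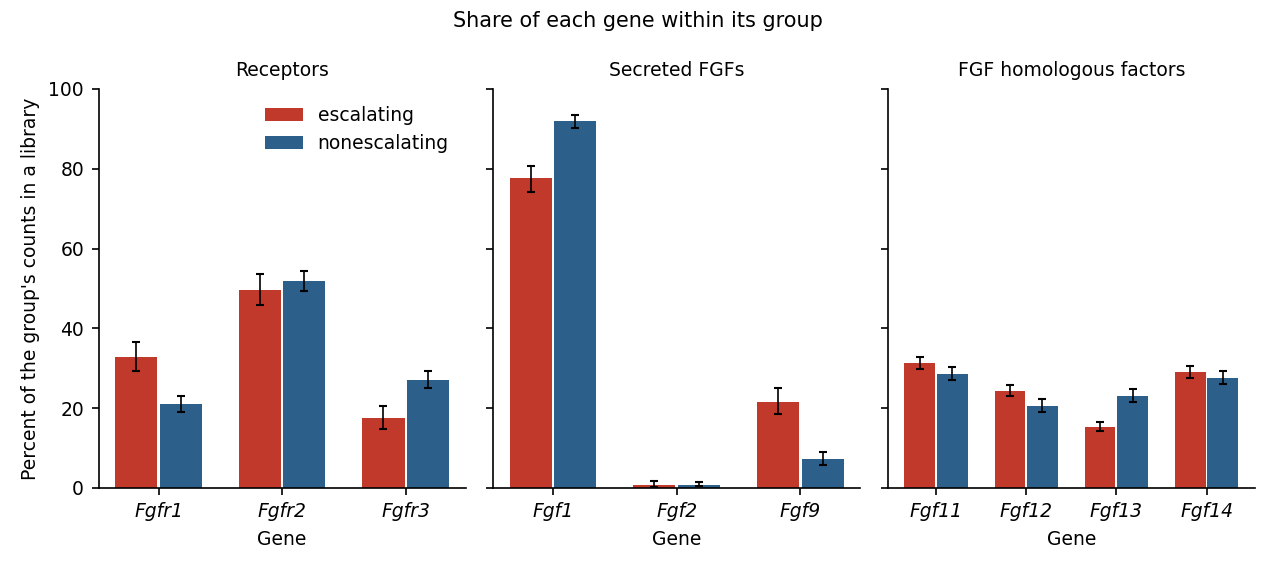
Percent of the reads of each group of genes that fell on each gene, in the escalating (red) and nonescalating (blue) library; bars are single libraries and error bars exact 95% binomial intervals. Fgfr1, Fgf9 and Fgf12 take larger shares in the escalating library, Fgfr3, Fgf1 and Fgf13 smaller ones, and Fgfr2 about 50% in both.

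Levels between genes were compared per kilobase of exon, from GENCODE M21. In the escalating library Fgf14 led at 24.0 CPM per kb, followed by Fgf12 at 13.5 and Fgf13 at 13.2, a ratio of 1.03 (0.925 to 1.14), then Fgf1 at 8.46. Fgfr2 at 2.90 and Fgf9 at 2.76 came next, and the interval of their ratio also held 1 (0.858 to 1.29). Fgfr1 at 2.0 stood above Fgfr3 at 1.47, by a ratio of 1.36 (1.08 to 1.72). Fgf2 was last at 0.068.

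In the nonescalating library Fgf14 at 21.3, Fgf1 at 21 and Fgf13 at 18.5 CPM per kb led. The ratio of Fgf14 to Fgf1 was 1.01 (0.920 to 1.12), and that of Fgf1 to Fgf13 was 1.13 (1.02 to 1.26). Fgf12 at 10.7 and Fgfr2 at 9.65 had a ratio whose interval held 1 (0.995 to 1.24), followed by Fgfr3 at 7.28, Fgfr1 at 4.10, Fgf9 at 1.95 and Fgf2 at 0.143. Fgf9 thus ranked above Fgfr3 in the escalating library and below it in the nonescalating. Its rank against Fgfr1 in the escalating library depended on the length used: per kilobase of the longest transcript Fgf9 was at 3.58 and Fgfr1 at 3.92. Per kilobase of the longest transcript, Fgf13 led the nonescalating library at 29.8, before Fgf1 at 28.8 and Fgf14 at 24.7, so the order at the top does too. The exon length of Fgfr2 includes exons of GENCODE transcripts that reach into Ctbp2.

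**Figure D4:**
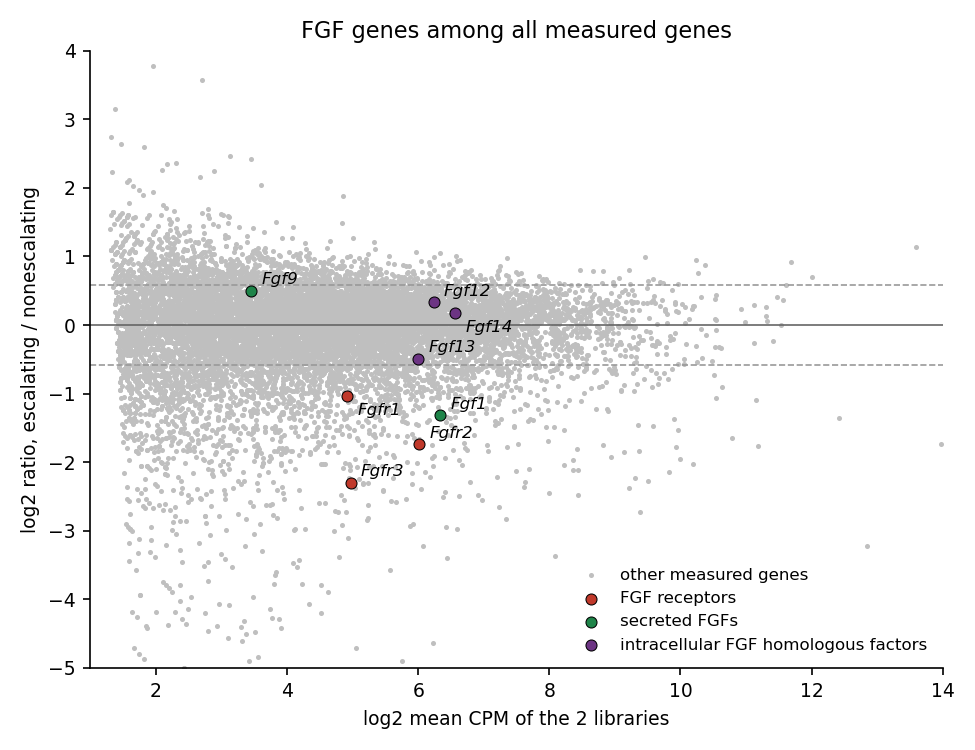
Each measured gene by its log2 mean CPM of the libraries (x axis) and its log2 ratio of escalating over nonescalating (y axis), with the members in colour and dashed lines at 1.5-fold; 36 of 12213 genes lie outside the axes. The receptors (red) and Fgf1 lie in the lower part, and the homologous factors (purple) lie in the central band. The percent of measured genes with a ratio as low or lower was 8.54 for Fgfr1, 5.73 for Fgf1, 3.56 for Fgfr2 and 1.92 for Fgfr3.

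Cell type markers differed between these libraries in ways that run beside the receptors. All 14 astrocyte markers were lower in the escalating library (median log2 ratio -1.76), and their summed level was 2388 CPM against 16040, a 6.72-fold difference. None was at 0, and the most counted, the glutamate transporter gene Slc1a2, was 9.33-fold lower (9.18 to 9.49). Slc1a2 carried most of the sum: without it the sums were 968 and 2783 CPM, a 2.88-fold difference. All 12 microglia markers were lower (median -5.72; 34.9 against 1552 CPM), with Trem2 at 0 in the escalating library. Of the other non-neuronal lists, 9 of 14 mature oligodendrocyte and 5 of 10 oligodendrocyte precursor markers were called lower, and 1 precursor marker higher. Calls of lower also covered 10 of 11 endothelial and 2 of 5 mural and meningeal markers. Called or not, ratios were below 0 for 14 mature oligodendrocyte, 9 precursor, 11 endothelial and 4 mural and meningeal markers. With total-read scaling 12 of the astrocyte, 12 of the microglia and 6 of the mature oligodendrocyte markers were called lower. The same held for 3 of the precursor, 6 of the endothelial and 2 of the mural and meningeal markers. Of all measured genes, 17.1% were called lower with TMM and 9.40% with total reads.

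Against those lists, the log2 ratio of Fgfr3 was -2.30, below 11 of 14 astrocyte markers and 0.54 below their median. Fgfr2, at -1.73, lay 0.02 above the astrocyte median and 0.89 below that of mature oligodendrocyte markers. Fgf1, at -1.31, and Fgfr1, at -1.03, lay above the astrocyte median by 0.45 and 0.72. Fgfr1 lay nearer to the endothelial median, 0.04 above it, and to the mature oligodendrocyte median, 0.19 below it, and Fgf1 lay 0.23 below the endothelial median. The part of the glial and endothelial lists in the receptor values was not tested.

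Neuron markers lay elsewhere. Of 14 general neuron markers 2 were higher and 0 lower (median 0.32), and of 20 striatal projection neuron markers 1 was higher and 3 lower (median 0.00). With total-read scaling these counts were 9 and 0, and 7 and 1. All 4 members called lower had ratios below every one of the 34 genes on both lists. For Fgfr1 the margin was small, at -1.032 against -1.028 for the lowest projection neuron marker. That marker's value lies within the counting interval of Fgfr1 (-1.29 to -0.78). Fgf12 and Fgf14 differed from the general neuron median by 0.02 and -0.14, and Fgf13 by -0.81, below all 14 markers. Of 9 measured interneuron markers 1 was higher and 1 lower, and of 7 cortical excitatory neuron markers 4 were higher and 2 lower.

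Genes of the pathway around the members were taken from lists, with the share of all genes called (17.1% lower, 9.36% higher) as the background. For the counts with total-read scaling, the background shares were 9.40% lower and 31.5% higher. Co-receptors and binding partners were mostly lower: 9 of 13 measured genes, 0 higher, median -0.88. The heparan sulfate carriers Gpc5 (114 and 442 counts) and Sdc4 (215 and 826 counts) were lower by factors of 5.07 (4.12 to 6.29) and 5.02 (4.32 to 5.87). The glypican gene Gpc6 was 2.89-fold lower (2.46 to 3.42) and the syndecan gene Sdc2 2.29-fold (2.03 to 2.58). The adhesion molecule gene Ncam1 was 1.53-fold lower (1.45 to 1.6), a call lost with total-read scaling, and L1cam was not called at a log2 ratio of -0.47. With total-read scaling 6 of the 13 were lower and 0 higher (median -0.53).

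Enzymes that build and edit heparan sulfate leaned lower by small amounts, and this depended on the scaling. Of 20 genes 6 were lower and 0 higher (median -0.42), led by the chain-initiating enzyme gene Extl3 at 1.86-fold (1.71 to 2.03), the 3-O-sulfotransferase gene Hs3st5 at 1.86-fold (1.35 to 2.57), and the 2-O-sulfotransferase gene Hs2st1 at 1.69-fold (1.51 to 1.90). With total-read scaling 0 were lower and 1 higher (median -0.06).

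The signal relay inside the cell was mostly not called. Of 30 genes 3 were lower and 1 higher (median -0.03; with total reads 2 and 5, median 0.33). Among adaptor genes, Shc3 was lower by a factor of 2.37 (2.06 to 2.74), Gab1 of 1.96 (1.74 to 2.22) and Gab2 of 1.53 (1.26 to 1.84). Frs3 was 2.5-fold higher (1.38 to 4.80) on 49 and 15 counts, while Frs2, which encodes the main receptor adaptor, stayed at a log2 ratio of -0.23 on 1318 and 1183 counts. The kinase gene Braf, at 0.10, was not called.

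Targets and feedback inhibitors went both ways. Of 14 measured genes 3 were lower and 2 higher (median -0.27; 2 and 2 with total reads, median 0.09). The phosphatase gene Dusp4 was 3.56-fold lower (2.04 to 6.49) on 18 and 49 counts, the cyclin gene Ccnd1 1.97-fold (1.55 to 2.52), and Spred1 1.65-fold (1.53 to 1.78). Grb14 was 1.54-fold higher (1.13 to 2.13). The Sprouty gene Spry2, with 613 and 312 counts, lay at the threshold at 1.5-fold higher (1.31 to 1.73), and was not called with DESeq2 size factors. Spry1, Spry4, Dusp6 and Etv5 had log2 ratios of 0.02, -0.46, -0.14 and -0.58 and were not called. These are genes known to respond to FGF.

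Partners of the homologous factors were also measured. Of 17 sodium channel and axon initial segment genes 4 were lower and 0 higher (median -0.16; 0 and 2 with total reads, median 0.20). Among those lower were the initial segment scaffold gene Ank3 at 1.86-fold (1.82 to 1.91), the adhesion gene Nrcam at 1.77-fold (1.67 to 1.88) and the scaffold gene Mapk8ip2 at 1.67-fold lower (1.52 to 1.82). The sodium channel genes Scn8a, Scn2a1 and Scn4b were not called, at log2 ratios of -0.12, -0.34 and -0.40.

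**Figure D5:**
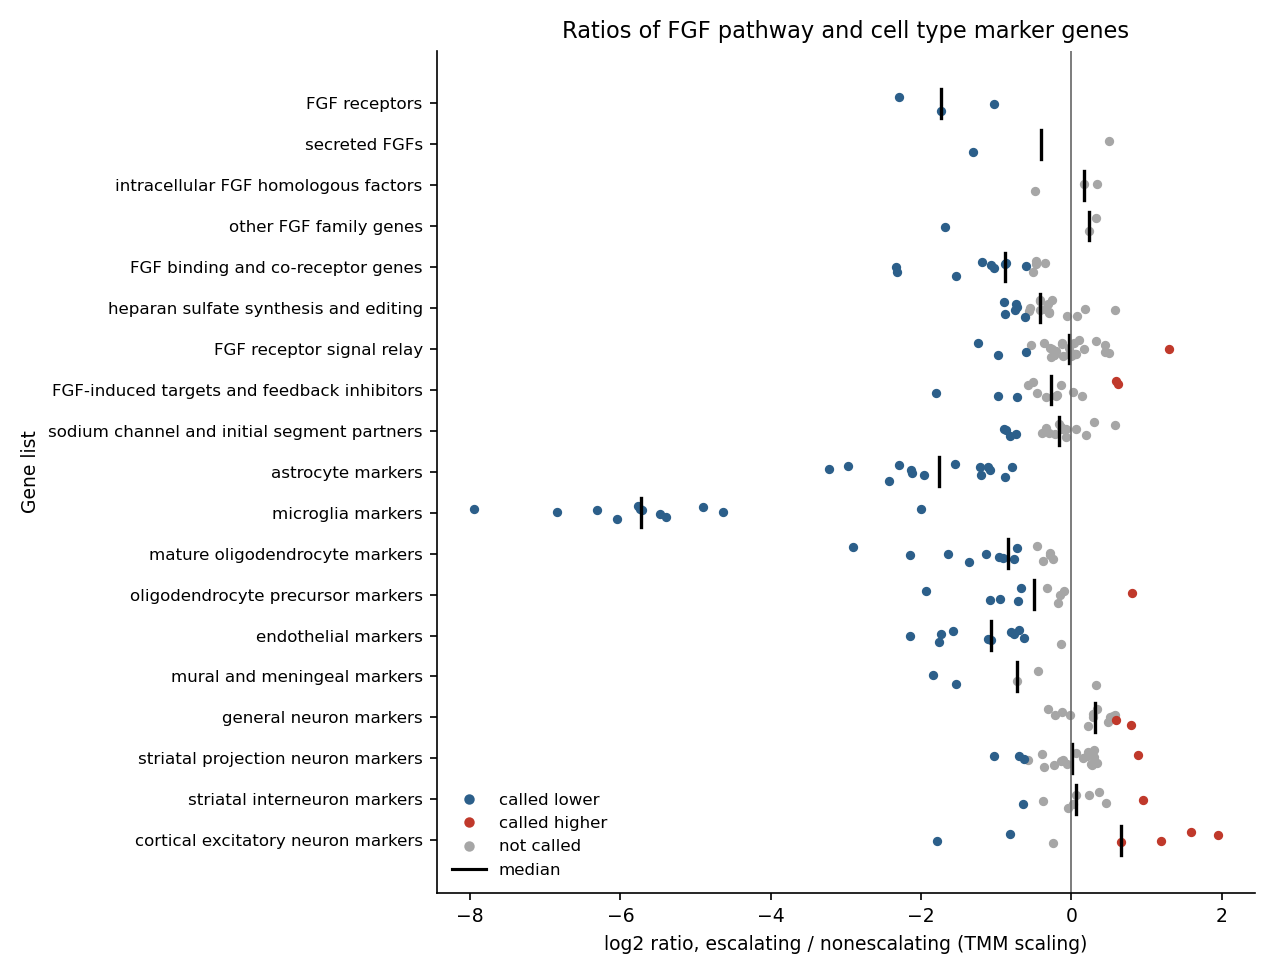
The log2 ratio of each measured gene (points) in the lists of members, pathway genes and cell type markers, with TMM scaling; blue points were called lower, red higher, and black bars are list medians. The FGF receptors lie within the range of the astrocyte values, with Fgfr1 above 12 of the 14 markers and close to the endothelial median, and the homologous factors among the striatal projection neuron values, with Fgf13 below all general neuron markers.

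The genes nearest to each called member were found by their distance in log2 CPM over the 2 libraries. For Fgfr3 they were Tril at 0.003, Gpc5 at 0.036 and Fjx1 at 0.048, with 11 genes within 0.25. For Fgfr2 they were Man2b1, Tns3 and Nfib at 0.060 to 0.141, with 7 within 0.25. For Fgf1 they were Cadm1, Rnf13 and Npc1 at 0.027 to 0.123, with 16 within 0.25, and for Fgfr1 Ifnar1, Dock1 and Msmo1 at 0.025 to 0.059, with 53 within 0.25. With 2 libraries such nearness describes a level and a ratio only.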

How the data were processed

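Total RNA from dissected dorsal striatum was sequenced as 1 library per group. Per the submitters' processing notes, the authors used STAR 2.0.0e with mm10, and HTSeq for counting; neither its annotation nor its strand option is given in the sources used here. Values were deposited as raw counts by gene symbol. Reads listed under no gene (46.2% of the escalating and 44.7% of the nonescalating library) stayed out of library sizes.

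Scaling factors were 1.13 and 0.882, by the TMM method of edgeR 4.0.16 (R 4.3.3). Log2 ratios used a pseudocount of 0.5, scaled to library size; folds are CPM ratios without one. Ratio and share intervals are Clopper-Pearson, CPM intervals Poisson, and intervals of ratios between genes exact conditional. Genes needed 50 counts over both libraries. No test across all genes was run, since 1 library per group leaves no residual degrees of freedom. The floor for a gene at 0 was 3 counts, or 0.277 and 0.363 CPM.

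The members and lists were chosen with earlier results of these data known. All members were named; in each of 6 pathway lists the 4 genes with the largest ratio and the 2 with the most counts, in each of 10 marker lists the 2 with the most counts, and 13 genes always (a selection is printed, and some named by the rule are not reported here). Ctbp2, Nudt6, G630022F23Rik, Gm28932 and Trem2 were named after their values were seen. Alternatives were other scalings, filters, pseudocount and fold. GENCODE M21 gave exon lengths and RefSeq GRCm38.p6, the same build as mm10, gave positions and sequences. DESeq2 1.42.0 gave size factors only. Other steps ran in Python 3.11.15 (scipy 1.17.1, numpy 2.4.6, matplotlib 3.10.9, pandas 2.3.3).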

Additional observations from a re-analysis of the deposited data

How the results depend on the processing

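Fgfr1, Fgfr2, Fgfr3 and Fgf1 were called lower under all 9 alternatives. In that order, their log2 ratios ran from -1.35 to -0.67, -2.05 to -1.37, -2.61 to -1.94 and -1.63 to -0.95. The looser count filters could not change these calls, since the genes passed the minimum of 50 counts. Fgf2 was never called. With total assigned reads Fgf9 (0.86) and Fgf12 (0.70) were called higher, which made 2 members, and over all genes 1148 were lower and 3853 higher, against 2085 and 1143 in the reported setting. With total reads without AK140265 and Rn45s, a scaling added after seeing the data, 1 member was higher, Fgf9 (0.64), as were 1913 of all genes. Centred on general neuron markers, Fgf13 was called lower (-0.81), the ratio of Fgf14 turned to -0.14, and 3697 genes were lower and 303 higher. A 2-fold threshold left 1085 lower and 249 higher. Pathway counts followed the scaling. Centred on neurons, 15 of 20 heparan sulfate and 7 of 30 relay genes were lower. So were 7 of 14 target and 7 of 17 sodium channel partner genes, and 0 target genes were higher. Among all 12213 genes 3697 were lower and 303 higher in that setting. At 2-fold the same lists had 0, 1, 1 and 0 lower and 0 target genes higher, beside 1085 lower and 249 higher of 12213. Without AK140265 and Rn45s, 1 of 20 heparan sulfate, 2 of 30 relay and 1 of 17 sodium channel partner genes were higher. Of all 12213 genes 1913 were. With a minimum of 10 counts or of 1, 3 other FGF family genes were lower, against 1. Over all genes 2680 of 15656 and 2821 of 19847 were lower in these settings. No library could be left out, since each group has 1. No paired analysis was possible because each group has 1 library. Depth limits Fgf2, Fgfr4 and most other ligands.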

Other observations

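Other FGF ligand genes were near the limit of detection. Of 20 further FGF family genes, 7 (escalating) and 9 (nonescalating) were at 0, which allows up to 0.277 and 0.363 CPM. Fgf10 had 6 and 15 counts, Fgf23 3 and 13, and Fgf18 19 and 11; these 3 were chosen after their values were seen, and all fell below the 50 counts required for a call. Without that requirement Fgf10 and Fgf23 would be called lower, with ratios of 0.306 (0.097 to 0.834) and 0.176 (0.032 to 0.642). Kl, which encodes the co-receptor of endocrine FGFs, had 38 and 23 counts, and its interval of 0.734 to 2.22 spans 1.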
